A study of Mus musculus with 6 samples.

Results

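The 10 genes described here, Spry1, Spry2, Spry4, Spred1, Spred2, Dusp4, Dusp6, Il17rd, Etv1 and Etv4, are feedback inhibitors of ERK signalling and ETS transcription factors that serve as transcriptional readouts of GDNF and FGF signalling. They were taken by name, and all 10 are among the 24495 gene symbols of the deposited count table. The samples are 6 RNA libraries of cultured mouse spermatogonial stem cells from DBA2 testes of postnatal day 5 to 8. In 3 libraries the cells had been given 2 uM EPZ5676, also called pinometostat, which blocks DOT1L, a lysine methyltransferase of histone H3, and in 3 the vehicle, 0.2% ethanol; both lasted 2 weeks. No genotype or transgene is named, and all 6 libraries share the strain and age range. The series calls the 3 libraries of a group biological triplicates, but the labels do not say how many animals or separate cultures stand behind them, so the p-values measure the spread between these libraries.

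GDNF, acting through the co-receptor GFRA1 and the kinase RET, and FGF2, acting through FGF receptors, maintain spermatogonial stem cells in culture. Both activate RAS, RAF, MEK and ERK. Active ERK induces genes that restrain it: Sprouty and SPRED proteins act at the level of RAS and RAF, the phosphatases DUSP4 and DUSP6 remove the activating phosphates of ERK, and the membrane protein IL17RD (SEF) acts on FGF receptors and on ERK's location. ETV1, ETV4 and ETV5 form the PEA3 group of ETS factors, which are transcribed and modified downstream of ERK; ETV5 is known for its part in stem cell renewal in the testis. The comparison asks whether this set differs between cells with and without the DOT1L inhibitor.

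RefSeq promoter windows on GRCm38.p6 were used for 7 of the 10 members. Windows of Spry4, Dusp4 and Etv4 were not used, so the sequence matches given below do not cover these genes. The deposited counts name mm9, so these windows show the genes' sequence and are not tied to a count. Of the members with a window here, Spred2 and Il17rd are the 2 whose groups did not overlap. Etv1, with 2 annotated starts, is the member with the widest range, and Dusp6 is a common ERK readout whose groups did overlap. The 5 windows below belong to these genes. Each is the 250 bases before the start, 5′ to 3′ on the gene's strand, all on the plus strand, and capitals mark every GGAA, the ETS core, on either strand (TTCC on the other).
Spred2, chr11:19924192-19924441: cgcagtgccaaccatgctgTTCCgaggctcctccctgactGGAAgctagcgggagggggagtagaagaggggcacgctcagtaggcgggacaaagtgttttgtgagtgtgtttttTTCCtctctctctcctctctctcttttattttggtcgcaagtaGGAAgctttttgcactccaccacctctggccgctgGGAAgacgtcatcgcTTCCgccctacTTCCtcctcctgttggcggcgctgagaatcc
Il17rd, chr14:27038751-27039000: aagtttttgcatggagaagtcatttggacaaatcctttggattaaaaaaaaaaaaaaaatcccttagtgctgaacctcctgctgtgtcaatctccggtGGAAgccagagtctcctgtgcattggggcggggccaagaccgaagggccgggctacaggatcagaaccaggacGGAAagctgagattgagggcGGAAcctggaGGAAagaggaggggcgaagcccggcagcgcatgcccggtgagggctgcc
Dusp6, chr10:99262981-99263230: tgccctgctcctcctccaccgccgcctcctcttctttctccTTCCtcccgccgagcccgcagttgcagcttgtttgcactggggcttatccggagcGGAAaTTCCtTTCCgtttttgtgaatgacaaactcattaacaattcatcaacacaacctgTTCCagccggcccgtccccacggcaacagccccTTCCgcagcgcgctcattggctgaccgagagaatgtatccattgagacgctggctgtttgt
Etv1 first start, chr12:38779832-38780081: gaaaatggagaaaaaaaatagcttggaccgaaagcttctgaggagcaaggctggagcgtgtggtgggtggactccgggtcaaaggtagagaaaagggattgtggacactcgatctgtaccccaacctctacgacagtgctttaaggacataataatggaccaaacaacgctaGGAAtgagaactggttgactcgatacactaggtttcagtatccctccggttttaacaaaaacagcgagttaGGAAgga
Etv1 second start, chr12:38783461-38783710: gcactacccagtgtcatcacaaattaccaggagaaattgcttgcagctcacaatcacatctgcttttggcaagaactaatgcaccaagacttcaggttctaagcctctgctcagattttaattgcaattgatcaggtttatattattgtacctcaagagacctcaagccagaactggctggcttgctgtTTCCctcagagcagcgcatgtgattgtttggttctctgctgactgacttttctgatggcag

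The Spred2 window held 7 matches to GGAA and the Dusp6 window 6, and 3.82% and 8.69% of all 32851 RefSeq promoter windows of this length held as many or more. The Il17rd window held 4, with 33.4% of windows at that number or above, and the Etv1 windows held 2 and 1. At least 1 match was present in 93.4% of all windows, with a median of 3. The longer ETS site CCGGAAG contains the core and was searched on both strands. It was in 0 of the 8 windows used for the members and in 6.91% of all windows. The octamers TGAATGAA and TGAATGGA, which the repressor CIC binds and which do not contain the core, were likewise in 0 of 8 and in 2.07% of all windows. These are letter matches in a short window and describe no binding.

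Libraries held 17784332 to 54645903 gene counts, the deepest being EPZ5676 replicate 2. Levels are CPM, a gene's counts relative to the library total after TMM (edgeR's trimmed-mean scaling), with means ± SD over 3 libraries. The germ cell markers Ddx4 and Dazl lay at 626 to 679 and 1671 to 1819 CPM in every library, and all 8 germ cell markers summed to 3904 to 4062 CPM. Among these 8, Dppa3 was at 31.0 to 36.7 CPM with EPZ5676 and 20.4 to 28.3 CPM with ethanol, without overlap. The sum of 16 markers of undifferentiated spermatogonia was lowest in both replicate 2 libraries (EPZ5676 1923, ethanol 1888 CPM), and the remaining 4 had 2096 to 2354 CPM. Of these 16, Gfra1 and Cdh1 (10.3 to 15.1 against 17.1 to 19.8 CPM) were lower with EPZ5676 without overlap, and Etv5 was higher. The sum of 6 markers of differentiating spermatogonia was highest in both replicate 2 libraries (EPZ5676 922.6, ethanol 914.5 CPM), and the remaining 4 had 758 to 843 CPM. Among these 6, Neurog3 was lowest in replicate 2 of both groups, and Sohlh2 was higher with EPZ5676 without overlap. Both replicate 2 libraries stood apart on the first principal component, which carried 48.7% of the variance. The summed level of 16 fibroblast markers was 1908 CPM in EPZ5676 replicate 2 and 2476 CPM in ethanol replicate 2, and 1425 to 1550 CPM in the other 4. Of those 16 markers, 14 had a negative log2 fold change. Among other testis cells, the Sertoli markers Amh and Fshr and the Leydig markers Insl3 and Lhcgr were at 0.163 CPM or less in every library. In the same Sertoli list, Wt1 was at 17.5 to 35.6 CPM and made up most of the sum. Sox9 was at 3.75 to 6.05 CPM and Gata4 at 1.47 to 1.96 CPM, while Amhr2, Cldn11 and Dhh were at 0.78 CPM or less. The summed Leydig list lay at 5.52 to 6.87 CPM with EPZ5676 and 7.93 to 10.4 CPM with ethanol, low in both but without overlap. Star alone, the only Leydig gene with enough counts to test, made up most of that sum (5.03 to 9.63 CPM), and the other 5 were at 0.76 CPM or less. Summed Sertoli (26.0 to 43.9 CPM), macrophage (12.1 to 17.4 CPM) and endothelial (15.6 to 18.5 CPM) markers overlapped between groups. Smooth muscle markers were highest in both replicate 2 libraries (80.9 and 128 CPM), and the remaining 4 had 47.8 to 59.9 CPM. Of the smooth muscle markers, only Des did not overlap between groups, at 8.14 to 10.1 CPM with EPZ5676 and 4.79 to 7.34 CPM with ethanol. For the markers named as not overlapping, the share over all genes tested is 14.9%, EPZ5676 higher or lower. The part of these lists in the results was not tested. In such bulk samples fewer cells of a type and less RNA per cell cannot be told apart.

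Compared per length, the ethanol level of the members ran from 28.0 ± 3.21 RPKM (CPM per kilobase of exon in GENCODE M21; SD, n = 3) for Dusp6 to 0.0370 ± 0.0195 RPKM for Etv1. After Dusp6 came Etv4 at 22.5 ± 3.35 RPKM and Spred1 at 21.6 ± 2.81 RPKM, whose library values overlapped each other and, for Etv4, those of Dusp6. The third PEA3-group gene, Etv5, which is not one of the 10, lay between them at 21.9 ± 1.07 RPKM. Il17rd at 11.9 ± 0.533 RPKM, Spred2 at 11.3 ± 0.491 RPKM and Spry4 at 10.03 ± 1.13 RPKM followed, with Spred2 and Spry4 overlapping. Spry2 (6.31 RPKM), Dusp4 (5.99 RPKM) and Spry1 (4.74 RPKM) each overlapped their neighbour in this order. Spry4 thus had the highest level per length of the 3 Sprouty genes, with no overlap with Spry2, the next. Exon lengths came from another annotation than the one counted, so the order is approximate.

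With EPZ5676, Spry4, Spred2 and Il17rd were lower in every library than in any ethanol library, by 11.1% to 26.7% of the ethanol mean. Mean levels of 7 of the 10 members were lower and of 3 higher. No member passed over all genes: of the 9 with enough counts to test, edgeR's quasi-likelihood F-test called 0 after Benjamini-Hochberg adjustment over 14855 genes (adjusted p from 0.596 to 0.991), and it called 0% of all genes. At an unadjusted p under 0.05, 3 members were lower and 0 higher, where 7.41% of all genes passed, 3.57% lower and 3.84% higher. DESeq2 called 0 members and 0.337% of all genes, and limma-voom 0 members and 0% of all genes. Of the 10, 3 had groups that did not overlap with EPZ5676 lower and 0 with EPZ5676 higher; of all genes tested, 7.64% did not overlap with EPZ5676 lower and 7.22% with EPZ5676 higher. A negative log2 fold change was found for 7 of the 9 and for 51.7% of all genes tested. The median log2 fold change of the 9 tested members was -0.15, against -0.00663 over all genes tested. Libraries with the same replicate number were also compared as pairs, since their deviations from the group means were correlated: 4 members were lower in all 3 pairs, 1 was higher in all 3 and 5 were mixed, where 22.3% and 19.5% of all genes tested were lower or higher in all 3. Of the 10, 5 (Spry2, Spred1, Dusp4, Il17rd and Etv4) were highest in replicate 2 of both groups and 1 (Etv1) was lowest there, as were 26.1% and 26.6% of all genes tested.

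**Figure D1:**
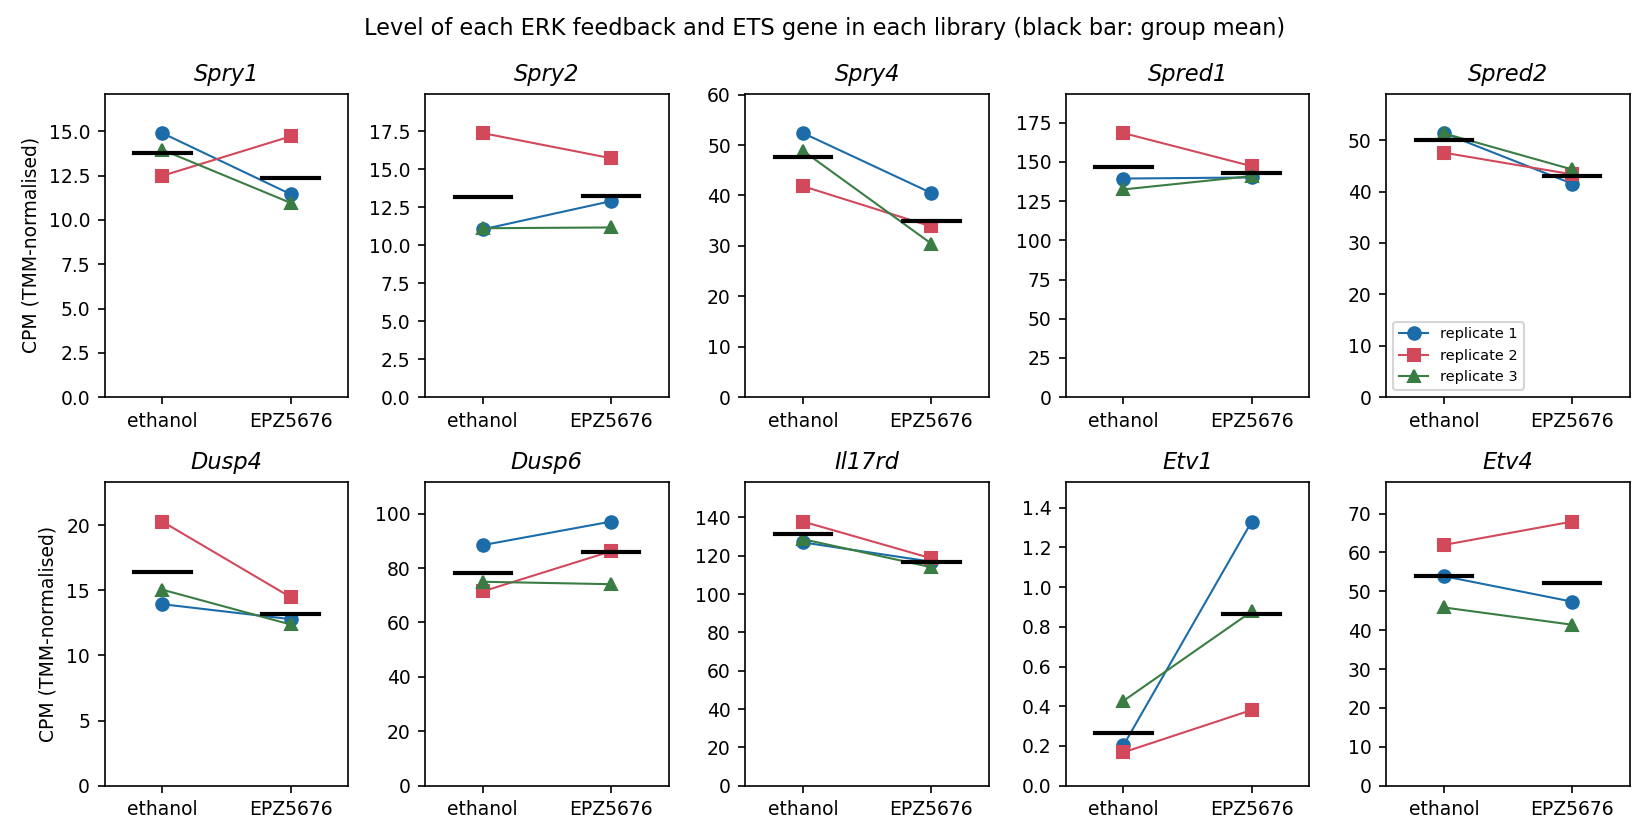
Level of each of the 10 genes in CPM (vertical axis from 0, a separate scale for each gene) with ethanol and EPZ5676; points are libraries, lines join libraries with the same replicate number and black bars are group means. Spry4, Spred2 and Il17rd have no overlap between groups, and Spry2 and Etv4 are highest in replicate 2 of both groups.

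Among the Sprouty genes, whose products are membrane-associated inhibitors of receptor tyrosine kinase signalling to RAS and RAF, Spry4 had the largest difference. Spry4 was at 40.5, 33.9 and 30.5 CPM in EPZ5676 replicates 1, 2 and 3, and at 52.4, 41.8 and 48.8 CPM in ethanol replicates 1, 2 and 3. The highest EPZ5676 library was just below the lowest ethanol library, which was replicate 2, and each EPZ5676 library was below its ethanol partner. The mean was 34.9 ± 5.11 against 47.7 ± 5.36 CPM (SD, n = 3), a log2 fold change of -0.45 ± 0.13 (SE; edgeR adjusted p = 0.596). Of all genes tested, 7.67% had a larger absolute log2 fold change. The exact permutation test of Spry4 levels gave p = 0.1 (two-sided), the smallest that 3 against 3 libraries allow.

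With the replicate number as a block, edgeR's test gave Spry4 a log2 fold change of -0.45 ± 0.09 (SE; adjusted p = 0.063) and called 0 of the 9 tested members and 0.653% of all genes. At an unadjusted p under 0.05 that fit had 4 members lower and 0 higher, against 9.51% and 9.01% of all genes. In 5 other settings Spry4 went past the threshold, all of them with the block: DESeq2 (adjusted p of 0.01), library totals alone (0.0498), no filter on low counts (0.0195), without pair 2 (0.00366) and without pair 3 (0.0397). In that order these settings called 293 of 14855, 193 of 14855, 445 of 20766, 795 of 14822 and 761 of 14912 genes tested. The fits without a pair have fewer residual degrees of freedom than the 2 of the full blocked fit. Without pair 1 the blocked edgeR value was -0.49 with an adjusted p of 0.489. Without both replicate 2 libraries and with no block it was -0.51, with an adjusted p of 0.179.

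Spry1 and Spry2 did not share this pattern. Spry1 was at 11.5, 14.7 and 10.96 CPM with EPZ5676 and 14.9, 12.5 and 14.0 CPM with ethanol, lower in pairs 1 and 3 and higher in pair 2. Its log2 fold change was -0.15, with a 95% interval from -0.50 to 0.21. It was -0.30 without EPZ5676 replicate 2, -0.07 without EPZ5676 replicate 3. Leaving out both replicate 2 libraries gave -0.36. An exon of Gm42922 overlaps Spry1 on the other strand in GENCODE M21, and since the use of strand in counting is not given in the sources used here, reads of the pair cannot be told apart. Spry2 was at 12.9, 15.7 and 11.2 CPM with EPZ5676 and 11.03, 17.4 and 11.1 CPM with ethanol. The replicate 2 library was the highest of its group both times, as it was for the summed fibroblast, smooth muscle and differentiating spermatogonia markers. The part of these markers in this was not tested. For Spry2 the log2 fold change was 0.02, with a 95% interval from -0.47 to 0.51. It turned negative without EPZ5676 replicate 2 or without ethanol replicate 1 or 3. Counts of Spry4 for each count of Spry1, a ratio that no library scaling changes, were 3.54, 2.30 and 2.78 with EPZ5676 and 3.52, 3.35 and 3.50 with ethanol. EPZ5676 replicates 2 and 3 thus lay below every ethanol library and replicate 1 above them. Whether the 3 Sprouty genes differ in their response was not tested.

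The SPRED genes encode Sprouty-related proteins with an EVH1 domain; SPRED1 brings neurofibromin to the membrane, where it inactivates RAS. Spred2 was at 41.5, 43.3 and 44.3 CPM with EPZ5676 and 51.4, 47.6 and 51.3 CPM with ethanol. Every EPZ5676 library was below every ethanol library, and the spread within a group was 4.37% of the mean or less. EPZ5676 over ethanol gave a log2 fold change of -0.22 ± 0.08 (SE; edgeR adjusted p = 0.645). Spred1 was at 140, 147 and 141 CPM with EPZ5676 and 139, 168 and 132 CPM with ethanol. Ethanol replicate 2 was the highest library, and the other 5 lay within 132 to 147 CPM. The log2 fold change was -0.04, with a 95% interval from -0.26 to 0.19, and it was 0.07 without ethanol replicate 2.

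**Figure D2:**
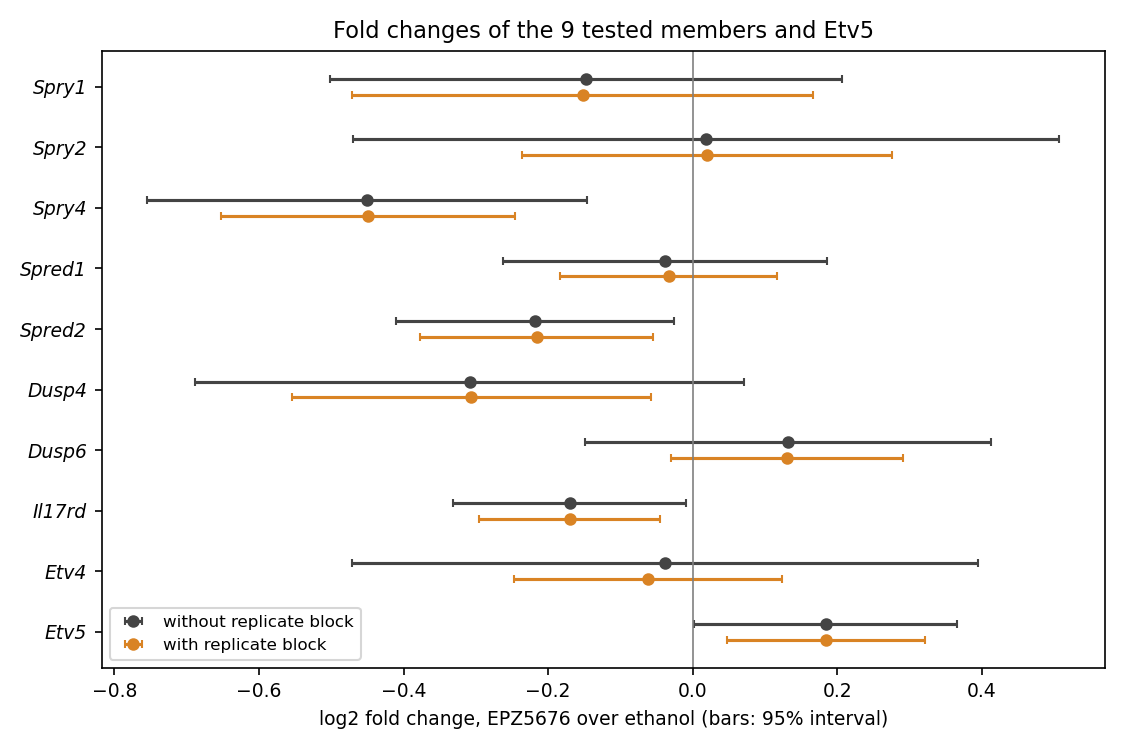
Log2 fold change of EPZ5676 over ethanol (horizontal axis) with its 95% interval for the 9 tested members and Etv5, from edgeR without the replicate block (grey) and with it (orange). The intervals of Spry4, Spred2 and Il17rd lie below 0 and those of Etv5 above 0 in both fits, before any adjustment over genes.

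Il17rd, the FGF receptor antagonist SEF, was at 117, 119 and 114 CPM with EPZ5676 and 127, 138 and 129 CPM with ethanol. All EPZ5676 libraries were below all ethanol libraries, and the within-pair log2 ratios were -0.12, -0.22 and -0.17. The means of 117 ± 2.35 and 131 ± 5.85 CPM (SD, n = 3) gave a log2 fold change of -0.17 ± 0.07 (SE; edgeR adjusted p = 0.659). The difference is small: 36.8% of all genes tested had a larger absolute log2 fold change. The SD was 2.02% of the mean with EPZ5676 and 4.46% with ethanol.

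The estimates for the MAP kinase phosphatases had opposite signs, and neither passed the test. Dusp4, a nuclear phosphatase, was at 12.8, 14.5 and 12.4 CPM with EPZ5676 and 13.9, 20.3 and 15.0 CPM with ethanol. It was lower with EPZ5676 in all 3 pairs, but EPZ5676 replicate 2 was above ethanol replicate 1, so the groups overlapped. The log2 fold change of -0.31 ± 0.17 (SE) became -0.13 without ethanol replicate 2, the library with the highest Dusp4. That library also had the highest summed fibroblast and smooth muscle markers, and the highest summed differentiating spermatogonia markers of its group. The part of these markers in this was not tested. Dusp6, the cytoplasmic ERK-specific phosphatase, was at 97.1, 86.1 and 74.1 CPM with EPZ5676 and 88.4, 71.4 and 75.0 CPM with ethanol. It was higher in pairs 1 and 2 and nearly level in pair 3, with a log2 fold change of 0.13 and a 95% interval from -0.15 to 0.41. Without EPZ5676 replicate 1, the highest library, the Dusp6 value was 0.03. Counts of Dusp6 for each count of Dusp4 were 7.59, 5.95 and 5.98 with EPZ5676 and 6.35, 3.52 and 4.98 with ethanol. The ratio was higher with EPZ5676 in each pair, while the groups overlapped through ethanol replicate 1.

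Of the ETS members, Etv1 had very few counts and Etv4 many. Etv1 had 26, 21 and 18 counts in EPZ5676 replicates 1, 2 and 3 and 4, 3 and 9 counts in ethanol replicates 1, 2 and 3. In CPM these were 1.33, 0.381 and 0.877 with EPZ5676 and 0.203, 0.168 and 0.427 with ethanol. Etv1 was higher with EPZ5676 in all 3 pairs, and the groups overlapped because EPZ5676 replicate 2, the deepest library, was below ethanol replicate 3. The ratio within pairs 1, 2 and 3 was 6.54, 2.27 and 2.05, with exact 95% intervals of 2.27 to 25.8, 0.677 to 11.9 and 0.876 to 5.19 that cover counting error only. Etv1 fell under the filter on low counts and was not tested with the others. Without the filter its log2 fold change was 1.57 ± 0.57 (SE; edgeR adjusted p = 0.763), and with the block and no filter 1.65 ± 0.45 with 0.0707.

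Etv4 was at 47.4, 67.9 and 41.4 CPM with EPZ5676 and 53.9, 61.9 and 45.9 CPM with ethanol. Replicate 2 was highest and replicate 3 lowest in both groups, and the groups overlapped throughout. The log2 fold change was -0.04, with a 95% interval from -0.47 to 0.39. Etv5 was at 105, 101.1 and 94.3 CPM with EPZ5676 and 92.8, 84.3 and 87.4 CPM with ethanol, above every ethanol library in each EPZ5676 library. Its adjusted p in edgeR was 0.67 without the block and 0.175 with it. The 3 PEA3-group genes therefore had different patterns over the libraries: Etv5 with a narrow spread and no overlap, Etv4 following the replicate number, and Etv1 at a level near 0. Whether they differ from each other was not tested.

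**Figure D3:**
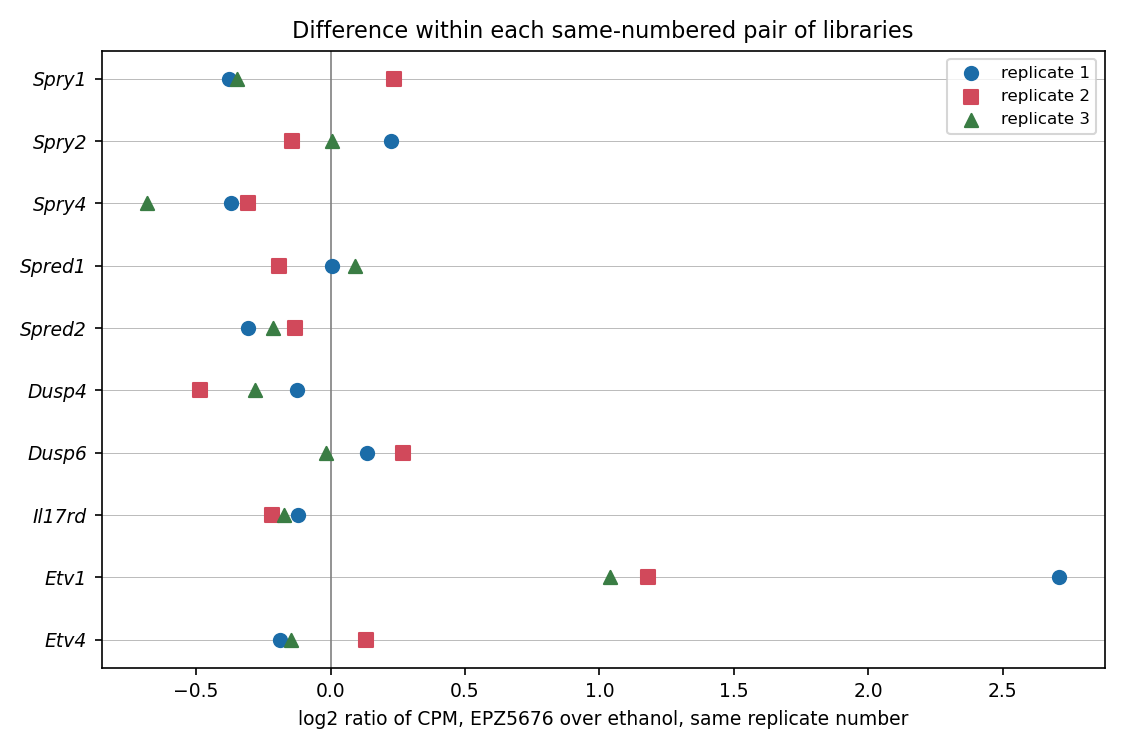
Log2 ratio of CPM, EPZ5676 over ethanol (horizontal axis), within each pair of libraries with the same replicate number, for the 10 genes; each point is a pair. Spry4, Spred2, Dusp4 and Il17rd lie below 0 in all 3 pairs and Etv1 above 0 in all 3, with 2.71 in pair 1.

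Summed over the family, the 3 Sprouty genes were at 64.8, 64.3 and 52.6 CPM with EPZ5676 and 78.3, 71.7 and 73.9 CPM with ethanol, and Spry4 supplied most of that difference. The 10 genes together held 522, 543 and 481 CPM with EPZ5676 and 553, 579 and 523 CPM with ethanol. The total was lower with EPZ5676 in each pair, and the groups overlapped. It is set largely by Spred1, Il17rd and Dusp6, the members with the most counts.

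Other genes of the pathway were counted from lists. Of 22 ligands and receptors of the GDNF and FGF families, 15 had enough counts to test and 0 were called with or without the block, with 0 higher and 1 lower at an unadjusted p under 0.05 without it. The lower one was Gfra1, the GDNF co-receptor, with 53.2, 59.3 and 44.05 CPM with EPZ5676 and 73.0, 68.8 and 66.5 CPM with ethanol. As for Spry4, all EPZ5676 libraries were below all ethanol libraries. Ret, the signalling partner, had 140, 129 and 121 CPM with EPZ5676 and 198, 111 and 198 CPM with ethanol, where ethanol replicate 2 stood below the other 5. The log2 fold change of Ret was -0.38 ± 0.20 (SE; edgeR adjusted p = 0.708), and -0.61 without ethanol replicate 2. With the block it was -0.335 (edgeR adjusted p = 0.265), and pair 2 went the other way, with a within-pair log2 ratio of 0.208. Leaving pair 2 out of the blocked fit gave -0.60 with an adjusted p of 3.99e-05, in a fit that called 795 of 14822 genes. Leaving out pair 1 or pair 3 instead gave -0.25 and -0.14, with adjusted p of 0.74 and 0.476. Fgfr1, an FGF receptor gene, had a log2 fold change of -0.14 ± 0.09 (SE), and Fgf10, an FGF ligand gene, one of 0.54 ± 0.48. Leaving out 1 library at a time moved Fgfr1 between -0.21 and -0.06 and Fgf10 between 0.21 and 0.91.

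Among 19 tested adaptor genes and 26 tested genes of the RAS, RAF, MEK and ERK cascade and its regulators, 0 were called in either fit, and medians of the log2 fold change were -0.01 and -0.00545. At an unadjusted p under 0.05 without the block, 1 adaptor gene and 1 cascade gene were higher and 0 were lower. These were Shc2, an adaptor gene with 4.64 ± 0.70 against 2.93 ± 0.408 CPM (SD, n = 3), and Araf, a RAF kinase gene with 61.0 ± 1.40 against 52.0 ± 2.41 CPM. Ksr2, a scaffold gene of the cascade, had a log2 fold change of 0.33 ± 0.16, and Rps6ka1, an ERK-activated kinase gene, one of -0.16 ± 0.16. The adaptor genes Gab2, Sos2 and Dok4 had values between -0.28 and -0.26. With 1 library left out these ran from -0.35 to -0.17 for Gab2, from -0.39 to -0.11 for Sos2 and from -0.45 to -0.12 for Dok4, and the Rps6ka1 value from -0.36 to -0.05.

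Of 14 tested genes for other feedback regulators, 1 was called lower with the block and 0 without it, with 0 higher and 1 lower at an unadjusted p under 0.05 without it. Dusp16, which encodes a phosphatase that acts mainly on JNK and p38, was at 59.5, 44.1 and 65.05 CPM with EPZ5676 and 75.4, 64.6 and 84.8 CPM with ethanol. It was lower in all 3 pairs, and the groups overlapped by a narrow margin. EPZ5676 over ethanol gave a log2 fold change of -0.42 ± 0.07 (SE) with the block (edgeR adjusted p = 0.0485), and -0.42 ± 0.16 with 0.645 without it. The call was lost without pair 1, at an adjusted p of 0.404, where the log2 fold change was -0.47. The unblocked Dusp16 value was -0.27 without EPZ5676 replicate 2. Dusp10, another phosphatase gene of JNK and p38, had a log2 fold change of -0.23 ± 0.12 with no overlap, and Rasa3, a RAS and RAP regulator, one of -0.16 ± 0.10. The median of the list was -0.10.

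Among 18 tested ETS-domain genes other than the members, Elf4 was called lower with the block and 0 genes without it, with 1 higher and 2 lower at an unadjusted p under 0.05 without it. Elf4, known for its part in lymphocyte quiescence and interferon induction, was at 104, 118 and 104 CPM with EPZ5676 and 141, 157 and 144 CPM with ethanol. The groups were well apart and the 3 within-pair log2 ratios were -0.44, -0.41 and -0.47. EPZ5676 over ethanol gave a log2 fold change of -0.44 ± 0.05 (SE) with the block (edgeR adjusted p = 0.0252); without the block it was -0.44 ± 0.08 with an adjusted p of 0.454, and unblocked DESeq2 gave 0.012. Without pair 1 the blocked call was lost, at 0.404, while the log2 fold change stayed at -0.44.

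Ets1, a factor that ERK phosphorylates, was at 47.7, 49.7 and 47.1 CPM with EPZ5676 and 62.0, 63.3 and 60.2 CPM with ethanol. Both groups were tight and did not overlap. EPZ5676 over ethanol gave a log2 fold change of -0.36 ± 0.08 (SE; edgeR adjusted p = 0.48) without the block. With the block the adjusted p was 0.0504, and unblocked DESeq2 called it (0.037). The median log2 fold change of the ETS list was -0.06, and 4 of its 18 tested genes had groups without overlap and lower with EPZ5676, against 7.64% of all genes tested.

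**Figure D4:**
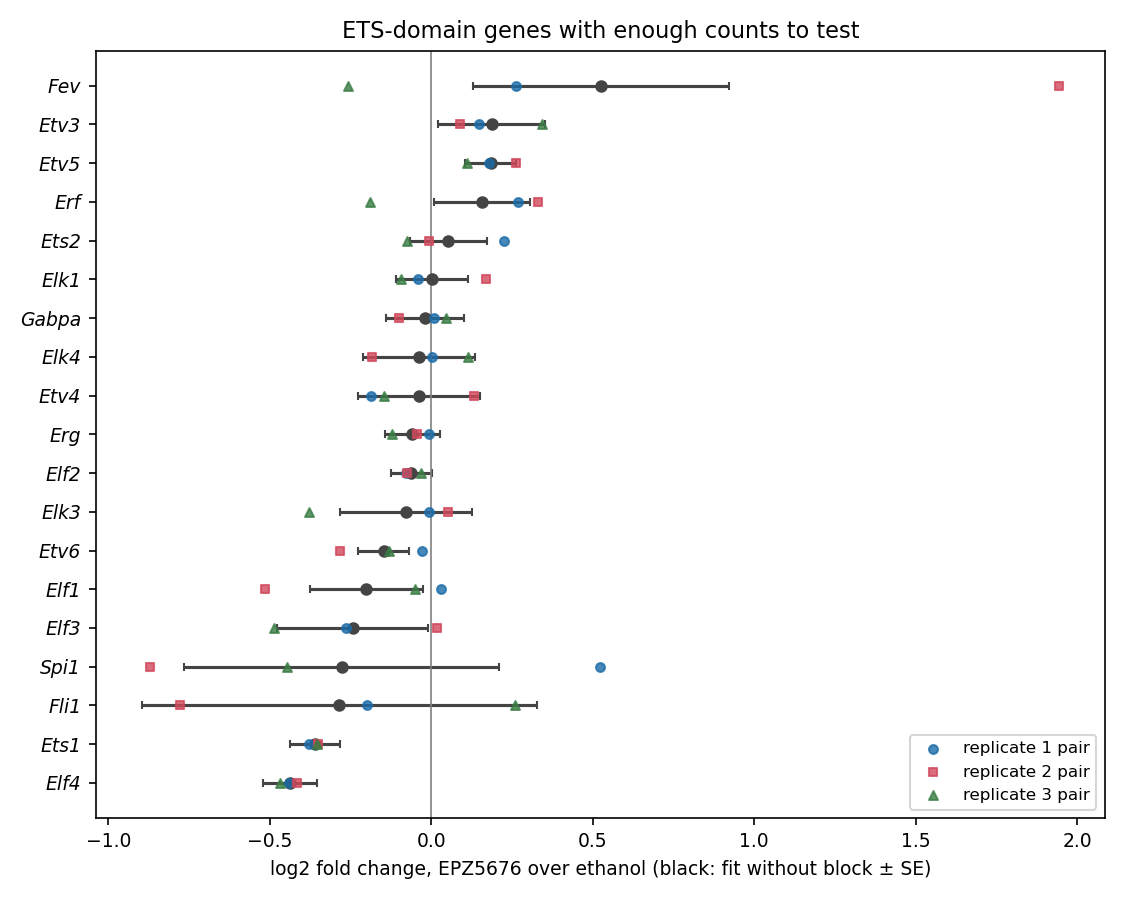
Log2 fold change of EPZ5676 over ethanol (horizontal axis) for the 18 tested ETS-domain genes outside the members and for Etv4; dark points and bars are the edgeR estimate without the block ± SE, and coloured points are the within-pair log2 ratios. Elf4 and Ets1 lie at -0.44 and -0.36 with 3 close pairs, and Fev, with group means of 1.46 and 1.02 CPM, has the widest spread of pairs, from -0.26 to 1.94.

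Among 29 genes listed around the ERK response, which include the repressor gene Cic, 18 had a positive and 11 a negative log2 fold change. All were tested and 0 were called in either fit, and the median log2 fold change was 0.08. At an unadjusted p under 0.05 without the block, 1 was higher and 0 lower. That gene was Cic, which encodes a repressor of PEA3-group and Sprouty-family genes that ERK inactivates. Cic was at 442.6, 402.8 and 349.7 CPM with EPZ5676 and 340.5, 310.3 and 343.7 CPM with ethanol. The groups did not overlap, but EPZ5676 replicate 3 was only just above its partner, with a within-pair log2 ratio of 0.03 against 0.38 and 0.38 in pairs 1 and 2. Epha2, an ephrin receptor gene, was lower in all 3 pairs but ranged from 86.3 to 247.5 CPM with EPZ5676 and from 124 to 287 CPM with ethanol, with replicate 2 highest in both. Its adjusted p in edgeR was 0.878 without the block and 0.0504 with it. The immediate-early genes Egr1 and Fos had log2 fold changes of -0.05 and 0.09. Trib1, a pseudokinase gene, Myc, a growth regulator, and Plaur, the urokinase receptor gene, had values of -0.29 ± 0.14, 0.57 ± 0.31 and 0.38 ± 0.28 (SE). These depended on single libraries: Trib1 was -0.15 without ethanol replicate 2, Myc 0.26 without EPZ5676 replicate 1 and Plaur 0.16 without ethanol replicate 3.

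Of 13 GDNF-responsive stem cell genes, 12 were tested and 0 were called, with a median log2 fold change of 0.04. At an unadjusted p under 0.05 without the block, Etv5 was higher and 0 were lower. Bcl6b, a transcriptional repressor gene, was at 58.25, 118 and 61.9 CPM with EPZ5676 and 74.65, 114 and 76.9 CPM with ethanol, so that replicate 2 was well above the others in both groups. Ccnd2, a D-type cyclin gene, and Lhx1, a homeobox gene, had log2 fold changes of -0.19 ± 0.16 and -0.27 ± 0.32.

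The genes whose profile over the 6 libraries was most like a member's were found by the root mean square difference of log2 CPM centred on each gene's mean. For Spry4 these were Sptb, Tap1 and 1600014C10Rik, at distances of 0.0285, 0.0682 and 0.0684, where the Spry4 profile itself had a root mean square of 0.273. Sptb, the erythroid beta-spectrin gene, was at 39.9, 34.1 and 31.4 CPM with EPZ5676 and 54.0, 41.0 and 49.65 CPM with ethanol, the same order of libraries as for Spry4. For Etv1 they included Arnt2 and Abcd2, at distances of 0.494 and 0.501 against a root mean square of 0.896. These lists rest on 6 libraries and 10685 and 10686 candidate genes.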

How the data were processed

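RNA of 6 libraries was measured, 3 with EPZ5676 and 3 with ethanol, grouped by their titles; the kit was TruSeq Stranded mRNA, per the labels' protocols. The authors deposited unnormalised read counts, 1 row per symbol of a refGene column, per the file headers. The tools Bowtie, STAR, featureCounts and edgeR and the build mm9 are listed without versions, per the submitters' processing notes. Strand setting and multimapped reads: not given in the sources used here. A table of repeat families was not used here.

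Counts were analysed in R 4.3.3 with filterByExpr (14855 of 24495 genes kept, 3729 without a count), TMM and edgeR 4.0.16's quasi-likelihood test, two-sided, with Benjamini-Hochberg adjustment over all genes and a threshold of 0.05. limma 3.58.1 (voom) and DESeq2 1.42.0 were alternatives. The tests were checked on simulated counts. The lowest chi-square per degree of freedom between any 2 of the 6 libraries was 3.64, so none was a copy of another. RPKM values used exon lengths of GENCODE M21.

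Replicate numbers were checked as pairs: deviations from the group mean correlated across genes at 0.411, 0.614 and 0.335 for numbers 1, 2 and 3, all over 0.1, the bound for pairing. EPZ5676 replicate 1 with ethanol replicate 3 (0.278) and replicate 3 with replicate 1 (0.149) also exceeded it, and no label says what the numbers stand for. Residual degrees of freedom over all 6 libraries were 4 without the block and 2 with it, and fewer when libraries were left out.

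The members and gene lists were chosen with earlier results of these data known. Named besides the members were Etv5, the called genes of each list, the 3 with the smallest p in each fit, and the 3 genes most like 2 members, of which some are not reported here; Egr1 and Fos were added as reference points after their values were seen.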

Additional observations from a re-analysis of the deposited data

How the results depend on the processing

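Across 20 alternatives the log2 fold change of Spry1, Spry4, Spred2, Dusp4 and Il17rd stayed negative and that of Dusp6 and Etv5 positive, with Spry4 between -0.57 and -0.34, Spred2 between -0.26 and -0.17 and Il17rd between -0.19 and -0.14. Leaving out 1 library at a time gave -0.13 to 0.26 for Spry2, -0.11 to 0.0677 for Spred1, -0.28 to 0.10 for Etv4, -0.83 to 0.0202 for Epha2, -0.33 to 0.00590 for Ccnd2, -0.46 to 0.0332 for Lhx1 and -0.56 to 0.0726 for Bcl6b; Spred1 was 0.0484 without both replicate 2 libraries and 0.0489 with the replicate block without pair 2, and Spry2 was -0.0724 with the block without pair 1. The count of genes called was 0 without the replicate block and 97 with it, 50 in DESeq2, 293 with the block in DESeq2, 193 with the block and library totals alone, 445 with the block and no filter on low counts (an alternative chosen after seeing the data) and 10 without both replicate 2 libraries; leaving out 1 pair from the blocked fit gave 0, 795 and 761 without pairs 1, 2 and 3. Members called were 1 in the block settings with DESeq2, library totals alone or no filter, and 0 to 2 when the blocked fit left out 1 pair; the second, without pair 2, was Etv1, which passed the low-count filter there through the EPZ5676 libraries, where it was high. Among the pathway lists the block called 2 genes and the fit without it 0. Of the named list genes called in neither, Ets1 passed in 6 of the 20 alternatives, Gfra1 and Epha2 in 5 each, and Ret, Cic, Myc, Plaur, Ccnd2 and Bcl6b in 1 each, a blocked fit without pair 2 or 3. Leaving out 1 library from the unblocked fit gave 0 called members. The cause of these differences was not tested. Depth limits Etv1, at 3 to 26 counts per library; the other members had 217 counts or more.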
